A study of Homo sapiens with 6 samples.

Results

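HSC3 is an established human cell line of oral squamous cell carcinoma, and the comparison described here is its RNA when grown in a plasma-like medium against its RNA in a standard one. The standard medium was DMEM, whose nutrient levels are unlike those of blood, and the other was HPLM, a medium composed to resemble human plasma. The labels give heat-inactivated fetal bovine serum and an antibiotic and antimycotic mix for both media, so the cells in HPLM also received serum. HSC3 gave 1 library in each medium, 2 of the 6 libraries of the series, and the other 4 came from the oral cancer lines HSC4 and SAS, again with 1 library per line and medium. The time in each medium and the number of cultures behind a library are not stated in the labels. The column taken for HSC3 in DMEM names the line and no medium. It was assigned by elimination, since the other HSC3 column names HPLM. A difference between media within HSC3 has no replicate check, and its ratios are values without a test.

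Of the 20488 genes above 0 in some library, the 12074 with a mean of at least 1 CPM over the HSC3 pair (CPM is the count scaled to the same total in every library) are described, and a gene was counted as 2-fold different at a log2 ratio of HPLM over DMEM of at least 1 in either direction, with 0.1 CPM added to both levels. The deposited values are estimated counts corrected for transcript length, so levels can be set side by side between genes. They summed to 19665471 in the DMEM library and 20171750 in the HPLM library, and to between 17715962 and 20123287 in those of the other lines. Of 15 squamous epithelial markers, 15 were at 1 CPM or more in both HSC3 libraries, with a summed level of 7841 CPM in DMEM and 6804 in HPLM. Markers of fibroblasts summed to 13.6 and 14.1 CPM, above the 3.11 to 7.56 CPM of the other lines. FAP at 7.64 and 7.84 CPM and COL1A1 at 5.44 and 5.2 made most of that sum, and LUM and THY1 were at 0. Leukocyte markers summed to 75 and 84.4 CPM, of which CD68 made 69.8 and 77.6, with CD3E at 0. Endothelial and erythroid markers stayed at or under 0.53 CPM when summed. The part of cells other than epithelial ones in the results was not tested.

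A cell reads its amino acid supply partly through the kinase GCN2 and the transcription factor ATF4, which raises genes for amino acid synthesis, uptake and tRNA charging when an amino acid runs short. NRF2 is the factor that, when released from KEAP1 under oxidative or electrophilic stress, drives genes for glutathione synthesis, detoxification, NADPH supply and iron storage, and in squamous carcinomas its pathway is often active. NF-kB drives cytokines and chemokines in epithelium, and keratinocytes answer such signals with acute-phase and antimicrobial proteins of the S100, serum amyloid and lipocalin kinds. The aryl hydrocarbon receptor is a ligand-activated factor whose best known target is CYP1A1.

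Promoters of 5 members are shown because they carry the binding letters of those factors in genes with some of the widest HSC3 differences. They come from RefSeq (GRCh38.p14), run 5′ to 3′ on the strand of the gene from 250 bases before its start to 50 after it, and the motif match is in capitals. ASNS lies at chr7:97872359-97872658 on the minus strand, and the capitals mark the core of the amino acid response element. CXCL1 (chr4:73869143-73869442, plus strand), CXCL2 (chr4:74099146-74099445, minus strand) and CXCL3 (chr4:74038640-74038939, minus strand) have a match to the NF-kB consensus in capitals. CYP1A1 (chr15:74725479-74725778, minus strand) has the core of the xenobiotic response element in capitals.
ASNS: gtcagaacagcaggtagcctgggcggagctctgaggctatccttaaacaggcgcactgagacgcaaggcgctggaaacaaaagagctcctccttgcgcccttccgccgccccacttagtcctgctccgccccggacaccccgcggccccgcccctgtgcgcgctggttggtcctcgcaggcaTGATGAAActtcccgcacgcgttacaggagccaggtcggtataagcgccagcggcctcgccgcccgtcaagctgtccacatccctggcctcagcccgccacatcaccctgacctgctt
CXCL1: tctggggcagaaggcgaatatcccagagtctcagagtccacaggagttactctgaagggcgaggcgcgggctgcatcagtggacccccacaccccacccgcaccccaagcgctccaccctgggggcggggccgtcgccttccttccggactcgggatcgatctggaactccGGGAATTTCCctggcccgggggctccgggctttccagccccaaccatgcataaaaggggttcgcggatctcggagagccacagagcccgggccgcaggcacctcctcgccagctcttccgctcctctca
CXCL2: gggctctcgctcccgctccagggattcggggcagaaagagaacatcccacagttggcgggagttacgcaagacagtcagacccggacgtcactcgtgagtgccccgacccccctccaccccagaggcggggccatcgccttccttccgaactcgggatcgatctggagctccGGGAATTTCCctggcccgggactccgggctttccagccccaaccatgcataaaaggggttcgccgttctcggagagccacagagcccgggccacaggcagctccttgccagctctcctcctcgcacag
CXCL3: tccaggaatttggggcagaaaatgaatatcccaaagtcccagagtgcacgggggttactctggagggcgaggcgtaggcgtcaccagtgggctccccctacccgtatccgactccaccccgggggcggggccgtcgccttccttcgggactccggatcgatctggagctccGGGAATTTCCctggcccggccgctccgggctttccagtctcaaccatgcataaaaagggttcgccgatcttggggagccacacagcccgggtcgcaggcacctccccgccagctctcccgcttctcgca
CYP1A1: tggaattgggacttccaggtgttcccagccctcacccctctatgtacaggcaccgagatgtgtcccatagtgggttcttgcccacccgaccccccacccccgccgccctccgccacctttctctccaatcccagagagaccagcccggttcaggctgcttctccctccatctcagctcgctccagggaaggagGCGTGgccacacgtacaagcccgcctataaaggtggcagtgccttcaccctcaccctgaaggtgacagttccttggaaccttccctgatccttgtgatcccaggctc

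The ASNS match, TGATGAAA, begins 68 bases before the start. The 3 chemokine promoters share the letters GGGAATTTCC at 79, 78 and 79 bases before the start. Over their 300 bases CXCL1 and CXCL3 were 68.7% identical without gaps, CXCL1 and CXCL2 51.7% and CXCL2 and CXCL3 48.3%. The shared letters begin at 78 bases in CXCL2 and at 79 in the others, so without gaps they are out of register. The percentages with CXCL2 can therefore understate its likeness to the others, and identity with gaps was not tested. In CYP1A1 the match begins 57 bases before the start. These matches are letters in a window and no evidence that a factor bound there.

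The motifs were searched on both strands, with no overlap between motifs taken into account, in the promoters of all genes considered that RefSeq gave, 9495 in number. The core TGATGNAA, a search added after values were seen, was in 4 of 20 promoters of the amino acid response list (20%; ASNS, CHAC1, SLC7A1 and SLC3A2) and in 1.58% of all promoters. The NF-kB consensus was in 10 of 20 promoters of the cytokine list (50%) and in 8.91% of all. The antioxidant response element core TGACNNNGC was in 7 of 21 promoters of the NRF2 list (33.3%) against 15.2% of all, and the xenobiotic core GCGTG in 7 of 8 promoters of the aryl hydrocarbon receptor list (87.5%) against 51% of all. Whether members with a match had wider ratios differed by list. In the amino acid list 2 of 4 genes with the core and 4 of 16 without it were 2-fold lower. The 2 are ASNS and CHAC1, and the level of CHAC1 in HPLM is too low for its ratio to be interpreted. In the aryl hydrocarbon receptor list 3 of 7 genes with the core and 0 of 1 without it were 2-fold lower. In the cytokine list 7 of 10 promoters with the consensus and 7 of 10 without it belonged to genes 2-fold higher in HPLM, and among NRF2 members 1 of 7 with the core and 7 of 14 without it were 2-fold lower.

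Across all genes HSC3 was evenly split, with a median log2 ratio of 0.00 and 49.8% of genes above 0. In HPLM 268 genes were 2-fold higher (2.22% of 12074) and 327 were 2-fold lower (2.71%). On the same genes HSC4 had 256 higher (2.12%) and 265 lower (2.19%), and SAS had 331 higher (2.74%) and 261 lower (2.16%), so the number of 2-fold genes in HSC3 was of the size seen in the other lines. In bulk RNA a shift in the share of cells in some state and a shift in the level per cell cannot be told apart. Most of the 2-fold genes were weakly expressed: 15.2% of the 2484 genes with a mean of 1 to 5 CPM were 2-fold different, 3.42% of the 3892 genes at 5 to 20 CPM, 1.49% of the 4240 at 20 to 100 CPM and 1.51% of the 1458 at 100 CPM or more. Of the genes higher in HSC3, 54 were also 2-fold higher in HSC4 (20.1% of the HSC3 genes and 21.1% of the HSC4 genes) and 65 in SAS (24.3% and 19.6%), and 16 in both. Of the genes lower in HSC3, 54 were 2-fold lower in HSC4 (16.5% and 20.4%), 49 in SAS (15% and 18.8%) and 17 in both. Among the 5698 genes at 20 CPM or more, Spearman's rho across genes between the ratios of HSC3 and those of HSC4 was 0.21, and with SAS it was 0.28. These are descriptions over genes of single library pairs, and genes are not independent replicates.

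**Figure D1:**
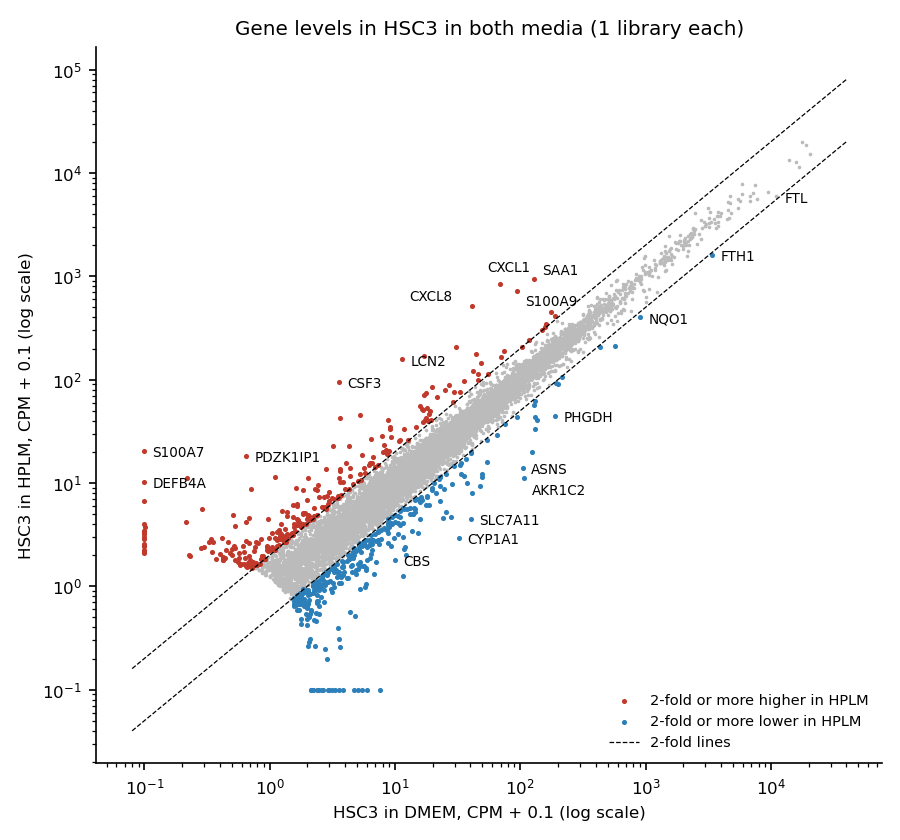
Level of each of 12074 genes in HSC3 in DMEM (x axis) and in HPLM (y axis), both as CPM + 0.1 on log scales, with 1 point per gene and dashed 2-fold lines. Red points are the 268 genes 2-fold higher in HPLM, with CXCL8, SAA1 and S100A9 among the abundant ones, and blue points the 327 lower, with ASNS, PHGDH and NQO1.

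At 100 CPM or more, where ratios rest on the most signal, 14 genes were 2-fold higher and 8 were 2-fold lower, and those named here were chosen after their values were seen. On the higher side stood the chemokines CXCL1, CXCL2 and CXCL8, the cytokines IL1A, IL1B and IL24, the NF-kB inhibitor TNFAIP3, the mitochondrial superoxide dismutase SOD2, complement C3, serum amyloid SAA1, the S100 proteins S100A9 and S100A14, the metallothionein MT1X and the polyamine acetyltransferase SAT1. The lower side included PHGDH, the entry enzyme of serine synthesis, the quinone reductase NQO1, the ferritin heavy chain FTH1, the lysosomal protease CTSD, the NAD salvage enzyme NAMPT, the activin antagonist FST and ADIRF. NAMPT had 194 CPM in DMEM and 92.8 in HPLM, FST 201 and 90.8, and ADIRF 430 and 209. In HSC4 these 3 genes lay above 0, at log2 ratios of 0.24, 0.24 and 0.39.

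Genes of the amino acid response were lower in HSC3 in HPLM. Of 26 genes considered in a list of ATF4 and its targets, 25 had a ratio below 0. Of the 26, 9 were 2-fold lower, against 2.71% of all genes, and 0 were 2-fold higher. The 9 include CHAC1, whose level in HPLM is under that of 3 counts. The median log2 ratio was −0.74 against 0.00 over all genes. The 26 genes had medians of 0.04 in HSC4 and 0.09 in SAS, where 1 and 0 of them were 2-fold lower. For 22 of the 26 the HSC3 ratio was below that of both other lines, as it was for 26.1% of all genes. ATF4 itself had 354 CPM in DMEM and 256 in HPLM in HSC3, a log2 ratio of −0.47, with 0.04 in HSC4 and 0.41 in SAS.

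Enzymes that make amino acids were among the members with the widest differences. ASNS, asparagine synthetase (chromosome 7, 97852118 to 97872542 in GENCODE 29), had 105 CPM in DMEM against 13.9 in HPLM for HSC3, 62 against 67.4 for HSC4 and 57.4 against 89.5 for SAS. The HSC3 level was the highest of the 3 lines in DMEM and the lowest in HPLM, 7.54-fold lower. Among its 17 transcripts, 8 were above 0.5 CPM, 8 of these were lower, and ASNS-202 carried 82.9% of the difference. PHGDH, which commits glycolytic carbon to serine (chromosome 1, 119648411 to 119744226), had 189 against 44.4 CPM for HSC3, 130 against 130 for HSC4 and 136 against 123 for SAS. PSAT1, the next enzyme, had 137 against 41 CPM for HSC3, 82 against 84.3 for HSC4 and 105 against 124 for SAS. For PSPH, the last step, the levels in HSC3 were 65.2 and 37.5 CPM. The 3 serine synthesis enzymes had log2 ratios of −2.09, −1.74 and −0.80 in HSC3 and between −0.14 and 0.24 in the other lines. PCK2, mitochondrial phosphoenolpyruvate carboxykinase, had 37.7 against 9.82 CPM for HSC3, 27.6 against 25 for HSC4 and 16.8 against 18.4 for SAS.

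Transporters followed in the same direction with a wide range. SLC7A11, the cystine importer, had 40.5 CPM in DMEM against 4.43 in HPLM for HSC3, 5.46 against 1.94 for HSC4 and 9.55 against 7.04 for SAS, so it was lower in all 3 lines and most in HSC3. SLC6A9, a glycine transporter, had 25.3 against 5.1 CPM for HSC3, 17 against 13 for HSC4 and 3.37 against 3.56 for SAS. The abundant glutamine carrier SLC1A5 had 256 and 150 CPM in HSC3, a log2 ratio of −0.77, and the heavy subunit SLC3A2 had 595 and 365, a ratio of −0.70. SLC38A2 and SLC7A1, carriers of neutral and of basic amino acids, were nearer to 0, at −0.43 and −0.27. SLC7A5, the leucine carrier, did not stand apart by line, with ratios of −0.48 (HSC3), −0.28 (HSC4) and −0.51 (SAS). SLC7A8, a neutral amino acid exchanger outside the list that the rule for wide ratios named, had 28.1 CPM in DMEM and 4.59 in HPLM, with ratios of −2.59 (HSC3), −0.27 (HSC4) and −0.97 (SAS).

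Folate enzymes of the mitochondrion and stress regulators completed the list. ALDH1L2, which oxidises mitochondrial formyl-folate, had 4.29 and 0.469 CPM in HSC3, SHMT2 had 428 and 260 CPM, and MTHFD2 had 102 and 72.5. TRIB3, an inhibitor of ATF4 that is also its target, had 48.4 and 25.6 CPM in HSC3 with a log2 ratio of −0.92, against 0.47 in HSC4 and 0.34 in SAS. DDIT3, a stress transcription factor, had −0.52 in HSC3 and 0.63 and 0.62 in the other lines. CHAC1, which degrades glutathione, was at 2.66 CPM in DMEM and 0.148 in HPLM, which is under the level of 3 counts in that library, and its ratio is not interpreted. Nearest to 0 were STC2, a secreted glycoprotein, at −0.04 and the transcription factor CEBPB at 0.10.

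**Figure D2:**
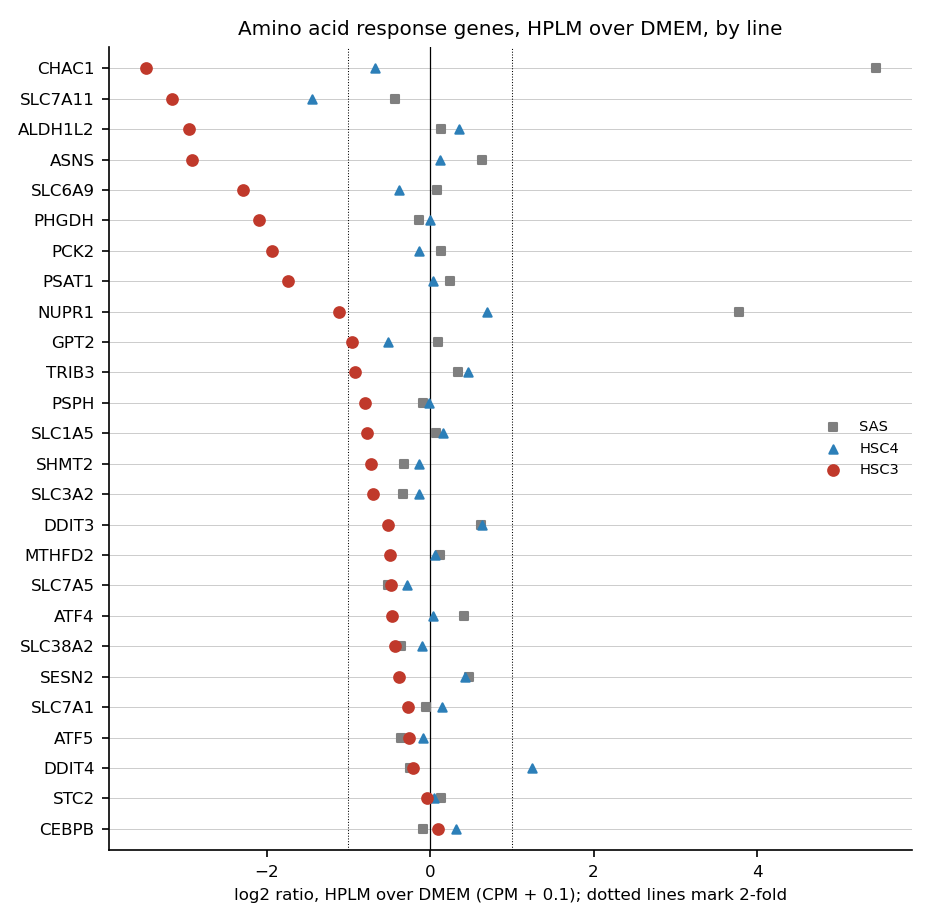
Log2 ratio of HPLM over DMEM for the 26 considered genes of the amino acid response list, with HSC3 as red circles, HSC4 as blue triangles and SAS as grey squares, 1 library pair per point. The HSC3 circles reach below −2 for ASNS, SLC7A11 and PHGDH while for ASNS and PHGDH the points of the other lines lie between −0.14 and 0.64, and CHAC1 is near the lowest level that can be read.

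Genes next to the ATF4 programme were lower only in part. In the list of serine, folate and methionine genes 3 of 11 were 2-fold lower (2.71% of all genes were) and 0 higher, and its median was −0.04. CBS and CTH, the 2 enzymes that turn homocysteine into cysteine, were among the 3. CBS had 9.85 CPM in DMEM against 1.69 in HPLM for HSC3, 0.907 against 1.59 for HSC4 and 3.76 against 5.1 for SAS, and CTH had 6.95 and 2.64 CPM in HSC3. Among 20 cytosolic aminoacyl-tRNA synthetases 0 were 2-fold different, and the median was −0.22, with 0.06 in HSC4 and −0.04 in SAS. CARS1 for cysteine, WARS1 for tryptophan and GARS1 for glycine were lowest in HSC3, with log2 ratios of −0.74, −0.66 and −0.62, whereas KARS1 for lysine had 0.30.

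NRF2 targets had the lowest median of the 44 lists in HSC3. Of 28 genes considered, 28 had a ratio below 0 in HSC3, 13 were 2-fold lower (2.71% of all genes were) and 0 higher, with a median of −0.92. The medians were −0.38 in HSC4 and −0.20 in SAS, where 6 and 0 genes were 2-fold lower. For 23 of 28 the HSC3 ratio was below both, against 26.1% of all genes. SLC7A11 is the 1 gene this list shares with the amino acid response list. The regulators themselves had ratios near 0, with NFE2L2, which encodes NRF2, at −0.09 and KEAP1 at −0.21.

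By role, glutathione synthesis showed 1 wide difference. GCLC, the catalytic subunit of the first and rate-limiting enzyme, had 49.7 CPM in DMEM against 11.4 in HPLM for HSC3, 10.7 against 11.8 for HSC4 and 6.98 against 6.17 for SAS. Its HSC3 level in HPLM was thus about the level of HSC4 in either medium. GCLM, the modifier subunit, had 26.7 and 21.1 CPM in HSC3, a log2 ratio of −0.34. The thioredoxin reductase TXNRD1 had 300 and 197 CPM and sulfiredoxin SRXN1 had 95.1 and 61.5, with ratios of −0.61 and −0.63.

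Among detoxifying reductases the AKR1C genes had far higher levels in HSC3 than in the other lines. AKR1C1, AKR1C2 and AKR1C3, aldo-keto reductases of steroids and carbonyls, had 132, 107 and 124 CPM in DMEM and 33.2, 11.1 and 20 CPM in HPLM in HSC3. In HSC4 AKR1C3 had 8.57 and 2.57 CPM, and AKR1C1 and AKR1C2 had under 2 CPM in HSC4 and SAS in either medium. These paralogs lie side by side on chromosome 10 and share long stretches of sequence, so how reads were divided among them is not certain. NQO1 had 900 against 402 CPM for HSC3, 433 against 215 for HSC4 and 347 against 244 for SAS, and was lower in HPLM in each line.

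Iron storage and NADPH supply went the same way. FTL, the ferritin light chain, had 11026 CPM in DMEM against 5917 in HPLM for HSC3, 4204 against 2993 for HSC4 and 2673 against 2619 for SAS, with the largest loss of CPM in HSC3 of any gene outside the mitochondrial genome. FTH1 had 3394 against 1609 CPM for HSC3, 8478 against 4310 for HSC4 and 1762 against 1502 for SAS. PGD, TKT and TALDO1 of the pentose phosphate pathway had log2 ratios of −0.66, −0.63 and −0.54 in HSC3. SQSTM1, the autophagy receptor p62 that binds KEAP1, had 129 and 57.1 CPM in HSC3, against 30.4 and 37.6 in HSC4 and 51.1 and 64.8 in SAS. HMOX1, heme oxygenase, was at 2.24 and 1.64 CPM.

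**Figure D3:**
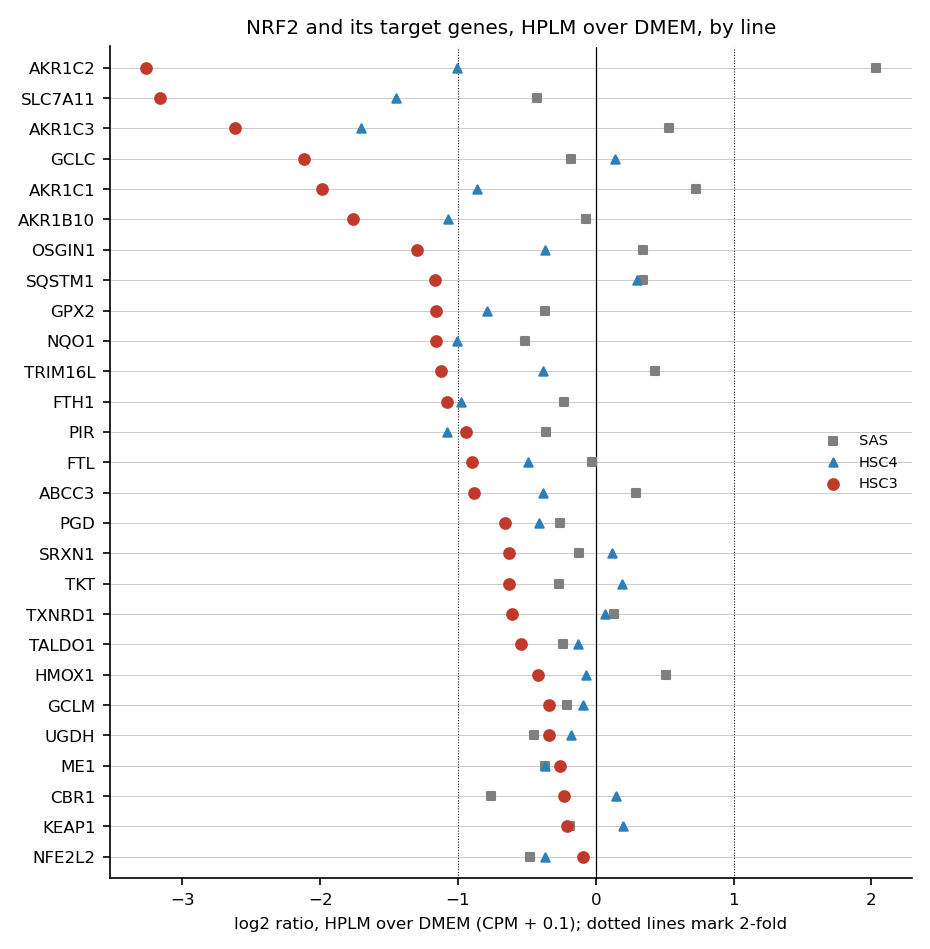
Log2 ratio of HPLM over DMEM for 27 of the 28 considered genes of the NRF2 list by line, with HSC3 as red circles, HSC4 as blue triangles and SAS as grey squares. All HSC3 circles shown lie left of 0, from AKR1C2 at −3.26 to NFE2L2 at −0.09.

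In the aryl hydrocarbon receptor list 8 of 8 genes were below 0 and 3 were 2-fold lower (2.71% of all genes were). The medians of the 3 lines lay close together at −0.63 (HSC3), −0.60 (HSC4) and −0.51 (SAS). CYP1A1, a monooxygenase, had 32.3 CPM in DMEM against 2.82 in HPLM for HSC3, 94.7 against 17.1 for HSC4 and 1.11 against 1.02 for SAS. UGT1A6, a glucuronosyltransferase whose exons are in part shared with other UGT1A genes, had 5.83 and 0.964 CPM in HSC3. NQO1, which is also an NRF2 target, was the third, and without it the HSC3 median of the list was −0.48.

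Inflammatory genes were higher. In the list of cytokines and NF-kB targets 16 of 24 genes were 2-fold higher in HSC3 (2.22% of all genes were) and 0 were 2-fold lower, with a median log2 ratio of 1.35. SAS also had 16 higher and a median of 1.82, whereas HSC4 had 3 and a median of 0.33, so on this list HSC3 lay between them.

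CXCL8 and CXCL1, chemokines of neutrophils, had the widest ratios among genes of 100 CPM or more. CXCL8 (chromosome 4, 73740506 to 73743716) had 41.1 CPM in DMEM against 521 in HPLM for HSC3, 142 against 205 for HSC4 and 1.26 against 69.5 for SAS. CXCL1 had 69.1 against 836 CPM for HSC3, 232 against 435 for HSC4 and 12.8 against 297 for SAS. CXCL2 had 30.4 and 208 CPM in HSC3, and CXCL3 had 3.09 and 22.6. In DMEM the HSC3 levels of CXCL1 and CXCL8 were below those of HSC4 and in HPLM they were above them. CXCL1, CXCL2 and CXCL3 are similar in sequence, and reads may be split between them in error. CCL20, a chemokine for dendritic and T cells, had 3.53 against 42.4 CPM for HSC3, 5.2 against 8.08 for HSC4 and 2.75 against 66.4 for SAS.

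Among cytokines, CSF3, the granulocyte growth factor, had 3.49 CPM in DMEM against 95.7 in HPLM for HSC3, 0.52 against 2.41 for HSC4 and 1.82 against 11.2 for SAS. The ratio was above 0 in each line and widest in HSC3, where 7 of its 8 transcripts above 0.5 CPM were higher. IL1A and IL1B had 161 and 345, and 191 and 412 CPM in HSC3, and TNF had 21.5 and 68.5. IL6 had 6.25 and 15.4 CPM, and IL36G 0.189 and 5.48. The adhesion receptor ICAM1 had 25.2 against 80 CPM for HSC3, 129 against 110 for HSC4 and 14.5 against 25.8 for SAS. The NF-kB inhibitors TNFAIP3 and NFKBIA had 74.2 and 187, and 134 and 230 CPM in HSC3. CSF2, LIF and PTGS2 were within 2-fold, and IL23A was the 1 member below 0, at −0.64.

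Acute-phase and antimicrobial genes had the highest median of the 44 lists in HSC3, 2.93, with 12 of 13 genes 2-fold higher (2.22% of all genes were) and 0 lower. HSC4 had 10 and SAS 9 of them higher, with medians of 1.54 and 1.80. LCN2, lipocalin, which binds bacterial siderophores, had 11.3 CPM in DMEM against 157 in HPLM for HSC3, 39.9 against 147 for HSC4 and 1.23 against 4.52 for SAS. S100A9, a subunit of calprotectin, had 94.4 against 719 CPM for HSC3, 222 against 540 for HSC4 and 54.3 against 148 for SAS. Its partner S100A8 had 26.8 and 89.1 CPM in HSC3. Unlike S100A9, S100A8 had its narrowest ratio in HSC3, at 1.73 against 2.40 in HSC4 and 2.56 in SAS. For both LCN2 and S100A9 the level in HPLM exceeded that in DMEM in each line, and in DMEM HSC3 lay below HSC4.

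S100A7, psoriasin, was at 0 in DMEM and 20.2 CPM in HPLM in HSC3, 133-fold higher when 0 is set to 3 estimated counts. It had 1.64 and 34.9 CPM in HSC4 and 2.3 and 3.36 in SAS. DEFB4A, beta-defensin, was at 0 and 10.1 CPM in HSC3, 66.5-fold higher on the same floor. Estimated counts are corrected for length and are not reads, so neither fold is a lower bound. Reads of the near-identical copy DEFB4B cannot be separated from those of DEFB4A with certainty. The serum amyloid genes SAA1 and SAA2 had 129 and 938, and 16.9 and 169 CPM, and they too are nearly identical. SAA4, the constitutive form, had 0.12 CPM in DMEM against 11 in HPLM for HSC3, 0.546 against 0.545 for HSC4 and 0 against 0.924 for SAS. The HSC3 level in DMEM is under that of 3 counts, 0.153 CPM, and no fold is given. Elafin, PI3, had 14.7 and 35 CPM in HSC3 and a wider ratio in HSC4, 2.96 against 1.25. The secreted inhibitor SLPI, at 75.7 and 105 CPM, was the 1 member within 2-fold.

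**Figure D4:**
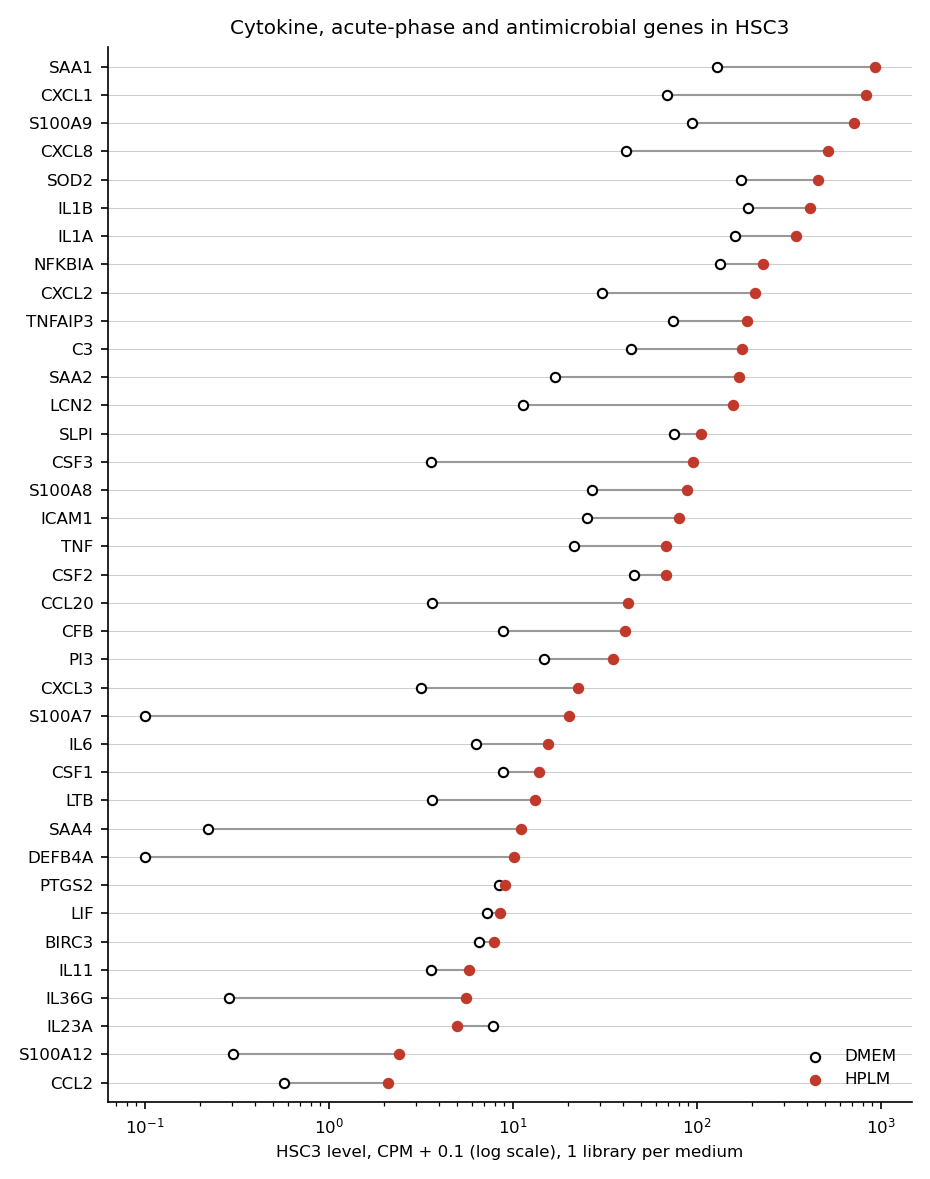
Levels in HSC3 as CPM + 0.1 on a log axis for the 37 considered genes of the cytokine and antimicrobial lists, with DMEM as open and HPLM as red circles joined by a line, 1 library per medium. The red circle lies to the right for all genes but IL23A, and S100A7 and DEFB4A start at 0 CPM.

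Beyond these lists, the rule for the widest ratios at 5 CPM or more named 3 other genes on the higher side. PDZK1IP1, a small membrane protein, had 0.549 CPM in DMEM and 18.2 in HPLM in HSC3. ALOX5AP, which presents arachidonate for leukotriene synthesis, had 5.16 against 45.6 CPM for HSC3, 2.64 against 2.49 for HSC4 and 1.08 against 8.34 for SAS. MRGPRX3, a receptor gene, had 1 and 11.4 CPM in HSC3 and stayed under 1 CPM in the other lines. On the lower side it added GULP1, an adaptor in the uptake of apoptotic cells, at 11.5 and 1.16 CPM, the secreted protease HTRA1 at 47.6 and 9.15, the lysosomal glycoprotein GPNMB at 41 and 7.96, TMEM255B at 24.1 and 4.45, and TMEM253 at 12.2 and 1.91. Of the TMEM253 difference 99.8% lay in 1 transcript with a retained intron.

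Energy and growth lists lay nearer to 0 in HSC3. Mitochondrial DNA genes had a median of −0.31, with 12 of 13 below 0, against −0.02 in HSC4 and 0.25 in SAS, and made up 14% of counts in DMEM and 12% in HPLM. Glycolysis genes had a median of 0.24 and lay above both other lines in 17 of 22 cases, with 1 gene 2-fold higher, and lactate dehydrogenase LDHA had 1530 and 2476 CPM. Mitosis genes had a median of 0.23 against −0.28 in HSC4 and −0.15 in SAS, above both in 19 of 20 cases, with 0 of 20 2-fold different. Cholesterol genes had 0.08 against −0.25 and −0.32, above both in 21 of 25. Over all genes considered, HSC3 was above both other lines for 41.1% and below both for 26.1%, which is the base for such counts. In HSC3 2.22% of all genes were 2-fold higher and 2.71% lower, and 2.12% were higher in HSC4 and 2.74% in SAS. Hypoxia genes had 6 of 25 2-fold higher, among them EGLN3, a proline hydroxylase of the hypoxia factor, at 6.32 and 26.5 CPM, and BNIP3, a mitophagy receptor, at 48.3 and 146, while VEGFA had 64.4 and 40.2. HSC4 also had 6 of these genes higher and SAS 1.

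Interferon-stimulated genes lay near 0 in HSC3. Of 23 genes 0 were 2-fold different and the median was 0.00. HSC4 had 18 of 23 2-fold lower (2.19% of all genes were) with a median of −1.39, and SAS 4 (2.16%) with −0.30. Class I antigen presentation genes had 0.03 in HSC3 against −0.48 and −0.25. Keratinocyte differentiation genes had 0.10, with 1 of 13 higher (2.22% of all genes were) and 1 lower (2.71%). In HSC4 their median was 0.84, and 4 were higher (2.12% of all genes were).

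**Figure D5:**
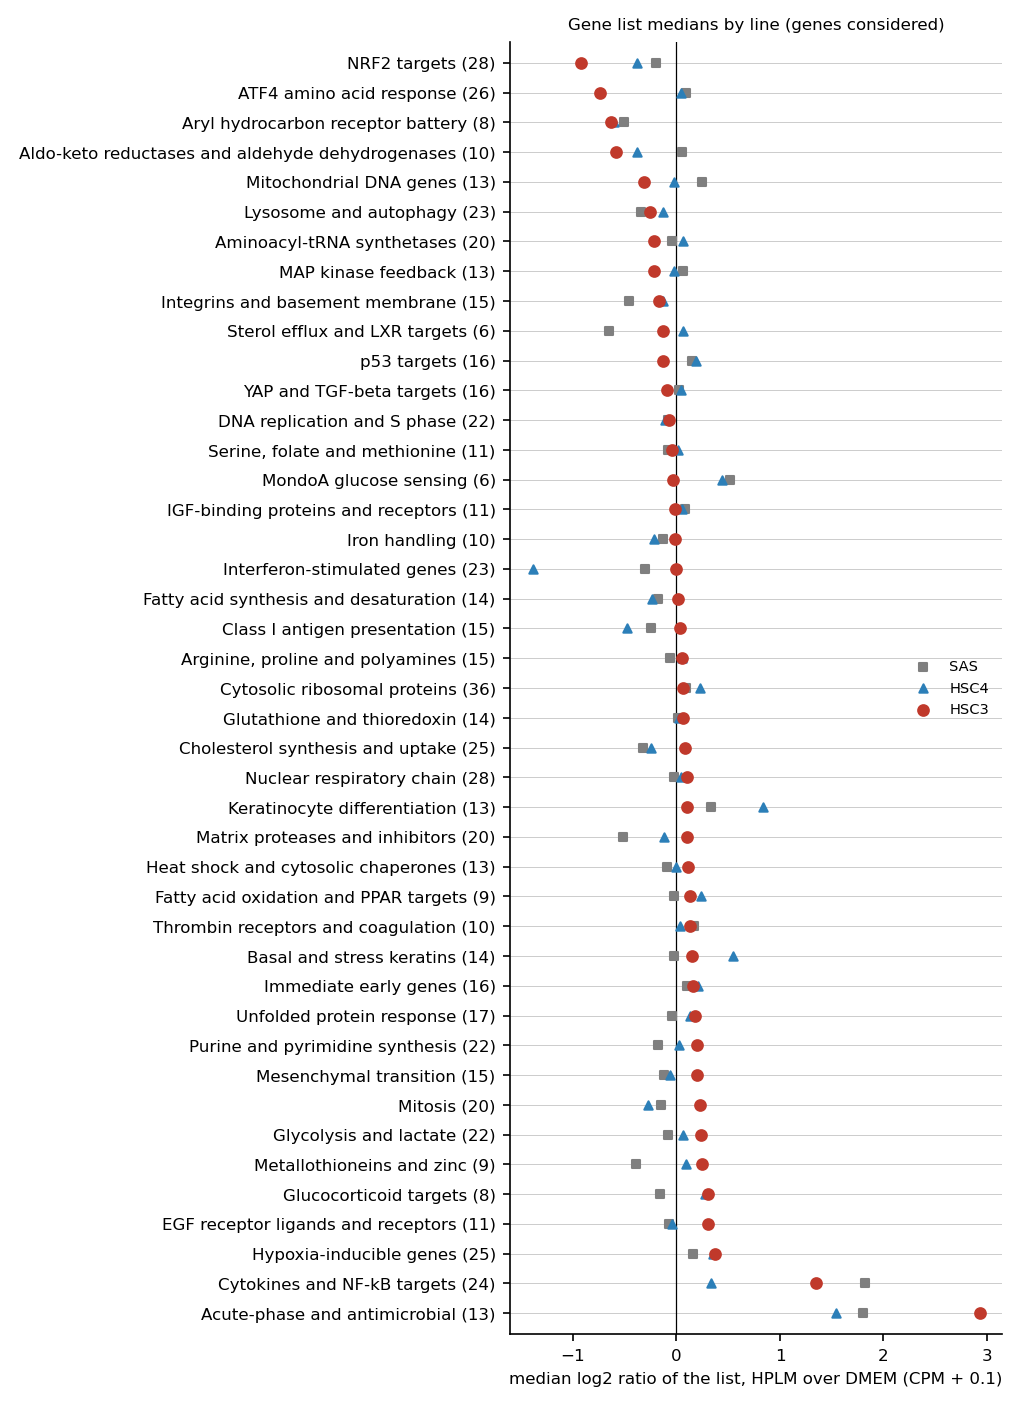
Median log2 ratio of HPLM over DMEM in each gene list with at least 5 genes considered (number in brackets), by line, with HSC3 as red circles, HSC4 as blue triangles and SAS as grey squares. In HSC3 the NRF2 list is lowest at −0.92 and the acute-phase list highest at 2.93, and the interferon list is at 0.00 where HSC4 is at −1.39.

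What is particular to HSC3 could be tested in 1 way, by setting its response against the mean response of HSC4 and SAS in the edgeR quasi-likelihood test. For a single gene its spread is how far the responses of HSC4 and SAS lay apart, with 1 residual degree of freedom. The test draws that spread toward a trend over all genes, which counts as 5.03 further degrees of freedom at the median. An SE or p given here thus rests largely on other genes and does not measure the gap between HSC4 and SAS for that gene alone. Of 13236 genes tested 0 passed an adjusted p under 0.05 (0%), and the smallest adjusted p was 0.177, for ASNS. With p taken unadjusted at a threshold of 0.05, edgeR counted 269 genes with a higher response in HSC3 (2.03%) and 417 with a lower one (3.15%), limma-voom had 0 past its adjusted threshold, and DESeq2 called 6 higher and 10 lower (0.121% together). DESeq2's Wald test treats the spread as known, so with so few degrees of freedom its p-values can be too small.

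Read against those shares, the amino acid response list had 15 of 26 tested genes lower in HSC3 at an unadjusted edgeR p under 0.05 and 0 higher. The NRF2 list had 13 of 29 lower and 0 higher, and the aminoacyl-tRNA synthetases 7 of 20 lower and 0 higher. The cytokine list had 6 of 24 higher and 0 lower, the acute-phase list 5 of 12 higher and 2 lower, and the interferon list 7 of 25 higher and 0 lower. In the interferon genes the difference comes with values near 0 in HSC3 and values below 0 in HSC4. The lists were chosen with earlier results of these data known, and genes of a list are not independent replicates. With 0 genes past the adjusted threshold, these counts describe the lists and do not test them.

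The named genes on the lower side, given as the difference in log2 response ± SE with edgeR and DESeq2 adjusted p, began with ASNS at −3.37 ± 0.30 (0.177 and 3.7e-13), PHGDH at −2.08 ± 0.20 (0.227 and 2.21e-07) and PSAT1 at −1.95 ± 0.22 (0.23 and 2.98e-05). SQSTM1 had −1.56 ± 0.21 (0.286 and 0.0283), GCLC −2.18 ± 0.30 (0.286 and 0.226) and PCK2 −2.00 ± 0.27 (0.286 and 0.131). The 3 leading genes make asparagine and serine. On the higher side S100A9 had 1.5 ± 0.20 (edgeR 0.286, DESeq2 0.000184) and LCN2 1.86 ± 0.23 (0.286 and 0.013).

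Other genes on the higher side were a matrix, a receptor, a GTPase and a filament gene, with CSF3 and RBM15B described elsewhere. TNC, the matrix protein tenascin C, had 16.9 CPM in DMEM against 71.1 in HPLM for HSC3, 109 against 107 for HSC4 and 17.6 against 25.6 for SAS, a difference of 1.77 ± 0.31 (edgeR adjusted p = 0.513, DESeq2 0.0283). IL7R, the interleukin 7 receptor chain, had 16.4 and 52.3 CPM in HSC3 and was lower in HPLM in the other lines, a difference of 2.05 ± 0.27 (edgeR adjusted p = 0.286, DESeq2 0.0165). RHOB, a small GTPase, had 19.1 and 49.7 CPM, and VIM, the intermediate filament vimentin, had 212 against 298 CPM for HSC3, 123 against 77 for HSC4 and 139 against 86.7 for SAS. VIM thus was higher in HPLM in HSC3 and lower in both other lines, a difference of 1.11 ± 0.20 (edgeR adjusted p = 0.513, DESeq2 0.122).

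The share of each transcript within its gene was compared as well. Of 5203 genes at 20 CPM or more with several transcripts, 108 had a shift of at least 20 percentage points in 1 transcript in HSC3, 158 in HSC4 and 127 in SAS. GSR-202, a processed transcript of glutathione reductase, took 54.4% of its gene's level in DMEM and 0.536% in HPLM. RPL10-207 had 22.6% and 72.9%, and ZBTB8OS-204 had 0.419% and 55%, with 56.1% and 49% in SAS. Such shares rest on how reads were assigned to overlapping transcripts, and they have no replicate.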

How the data were processed

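Polyadenylated RNA of 6 libraries was prepared strand-specifically and sequenced on a DNBSEQ instrument, per the labels' protocols. Per the submitters' processing notes, FastQC, kallisto and hg38 were used. For versions, the transcript annotation and the use of strand in quantification, nothing is given in the sources used here. Whether reads of a gene and its antisense partner were told apart is thus not known. What the authors deposited was 1 table of estimated counts per transcript (expected counts in the form called scaled TPM), which are length-corrected and are not reads, so no counting interval is given. Columns were matched by line, and for HPLM by medium; those taken for DMEM carry an ending the labels do not explain, and 0 value columns were left unused.

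The table had 161149 rows for 159837 transcripts. The 1312 repeated rows were counted once, the 6878 transcripts without a symbol (0.4788% and 0.4154% of the HSC3 libraries) were left out, and 152959 were summed to 27852 symbols and converted to CPM of that sum. GENCODE 29, which held 95.3% of the transcripts, gave positions and gene types. Log2 ratios added 0.1 CPM. The comparison of HSC3 with the other lines used edgeR 4.0.16 (quasi-likelihood, rounded counts, TMM, filterByExpr with a minimum count of 10 and total of 15, Benjamini-Hochberg adjustment) in R 4.3.3 with terms for line, medium and medium within HSC3. The line pairs the libraries of both media, since they come from the same cell line. DESeq2 1.42.0 and limma 3.58.1 were alternatives. Tables and plots used Python 3.11.15, pandas 2.3.3 and matplotlib 3.10.9.

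The genes, the 44 lists and the rules were chosen with earlier results of these data known. The rule named up to 12 protein-coding genes per direction with the widest HSC3 ratio at a mean of 5 CPM or more, 6 per direction with the largest CPM difference, 3 per list, 8 per direction for the difference from the other lines and 6 for transcript shares. Other members completed a role and were chosen after their values were seen, as was the amino acid response motif. A pseudogene on a sex chromosome that the rule took is not described. Some members of the lists are counted but not reported here by name.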

Additional observations from a re-analysis of the deposited data

Results flagged for a closer look

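Several named genes were 2-fold different in HSC3 and had the opposite sign in both other lines. The pattern is not rare: it held for 36 of the 268 genes 2-fold higher in HSC3 (13.4%) and 45 of the 327 lower (13.8%). None of the named genes passed the adjusted edgeR quasi-likelihood test of the difference from the other lines, and 1 library pair stands behind each ratio. ASNS had a log2 ratio of −2.91 (HSC3), 0.12 (HSC4) and 0.64 (SAS) (edgeR adjusted p = 0.177). PSAT1 had −1.74 against 0.04 and 0.24 (0.23), and CBS had −2.47 against 0.75 and 0.43. SQSTM1 had −1.17 against 0.30 and 0.34 (0.286). On the higher side IL7R had 1.66 against −0.63 and −0.26 (0.286), and RHOB had 1.38 against −0.13 and −0.28 (0.485).

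RBM15B, which encodes an RNA-binding protein of the m6A methylation complex, had 2.45 in HSC3 against −1.44 in HSC4 and −1.22 in SAS (edgeR adjusted p = 0.23, DESeq2 0.0165). Its levels were 1.52 CPM in DMEM against 8.79 in HPLM for HSC3, 4.94 against 1.76 for HSC4 and 20.3 against 8.67 for SAS.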

How the results depend on the processing

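The count of genes 2-fold different in HSC3 depends on how weak genes are treated. It was 268 higher and 327 lower as reported, 169 and 185 with 1 CPM added, 107 and 111 among genes of 5 CPM or more, and 1145 and 1228 with no filter on low values. TMM factors gave 282 and 328, every repeated row counted 267 and 326, protein-coding genes alone 228 and 273, and mitochondrial genes left out of the total 281 and 378, with the share of higher genes between 42.6% and 49.1%. No named ratio changed sign under the alternatives run. Among genes of 5 CPM or more the medians of 5 lists near 0 changed sign, from 0.10 to −0.25 for keratinocyte differentiation, 0.10 to −0.12 for matrix proteases, −0.04 to 0.04 for serine and folate genes, 0.01 to −0.03 for fatty acid synthesis and −0.01 to 0.02 for IGF-binding proteins. There the aryl hydrocarbon receptor list moved from −0.63 to −0.42, glucocorticoid targets from 0.30 to 0.59 and immediate early genes from 0.16 to 0.08. With 1 CPM added the median of the aryl hydrocarbon receptor list was −0.51. Every repeated row counted, the log2 ratio of DEFB4A was 7.67 in place of 6.68. With 1 CPM added it was 3.48, that of S100A7 was 4.41 in place of 7.67, of SAA4 3.43 in place of 5.66, of PDZK1IP1 3.63 in place of 4.82, of MRGPRX3 2.64 in place of 3.39 and of GULP1 −2.54 in place of −3.21. DESeq2 called 6 genes with a higher and 10 with a lower response in HSC3 than in the other lines, where edgeR with RLE scaling, no scaling or no low-count filter and limma-voom called 0. Without the line as replicate block edgeR called 0, and p fell under 0.05 without adjustment for 16 genes higher and 46 lower. Without HSC4 or without SAS no residual degree of freedom is left, and the 16 named differences kept their direction as values without a test. That direction was fixed in advance, since the rule took only genes whose HSC3 ratio lay beyond that of both other lines. There is 1 library per medium, so no count here separates the medium from the culture or library.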

Other observations

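The genes below were chosen one by one after their values were seen, and they stand for no group. Among those 2-fold higher in HSC3 in HPLM, HAS3, a hyaluronan synthase, had 19.7 CPM in DMEM and 84.8 in HPLM, the gap junction gene GJA1 2.71 and 13.5, and COL12A1, a fibril-associated collagen, 6.06 and 14.8. The list of integrins and basement membrane genes had 0 of 15 2-fold higher in HSC3 (2.22% of all genes were). In it 11 of 15 were below 0, with a median of −0.17. In SAS the ratio of COL12A1 was −1.43 and GJA1 was listed at 0 in both media. The RNase gene ZC3H12A had 17.7 and 74 CPM, the nuclear IkB gene NFKBIZ 5.37 and 18.6, and SOCS3, a suppressor of cytokine signalling, 7.96 and 20. The ratios of these 3 genes were above 0 in HSC4 and SAS too. The vasoconstrictor gene EDN1 had 15.8 and 55.5 CPM in HSC3, and the cytokine IL32 41.8 and 122.

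Among single genes 2-fold lower, the lysosomal proteases CTSD, TPP1 and DPP7 had 566 and 212, 130 and 62.1, and 40.6 and 20 CPM, and the lysosomal channel MCOLN3 17.8 and 7.23. In the lysosome list 2 of 23 genes were 2-fold lower (2.71% of all genes were), CTSD and SQSTM1. Its median was −0.26 against −0.13 in HSC4 and −0.34 in SAS. The clustered histone genes H1-2, H2AC6, H2BC4 and H2BC5 had log2 ratios of −1.02, −1.76, −1.48 and −1.47 in HSC3, while H2BC4 was above 0 in both other lines. Histone transcripts that lack a poly(A) tail are only partly captured by the selection used. The developmental regulators SOX9 and BMP4 had 25.4 and 12, and 9.77 and 2.82 CPM.

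The immunoglobulin segment IGLV5-52 had 10.9 CPM in DMEM and 25.9 in HPLM, while the leukocyte marker PTPRC had 2.22 and 2.01 CPM and CD3E was at 0.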
